A study of Drosophila melanogaster with 56 samples.

Results

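A group of 150 *Drosophila* genes was described whose mRNAs were abundant in the freshly laid egg, low in the middle of embryogenesis and abundant again shortly before hatching. They were chosen on their levels in counts per 1000000 (CPM, the share of a gene among the reads counted on genes), averaged over 4 replicates. Of 17558 gene IDs, 5157 had a mean of at least 10 CPM at both 1 h and 20 h after egg-laying and were candidates. For each of these, the lower of the 1 h and 20 h levels was divided by the lowest level over 3 to 10 h, with 0.5 CPM added to both, and the 150 genes with the largest ratio were taken. RNA had been sequenced from whole embryos of wild-type Oregon R flies at 14 time points (hourly from 0 to 6 h, then every 2 h up to 20 h), with 4 biological replicates each and 56 samples in all. No treatment or mutation was applied, and the groups differed only in age. Each sample was a pellet of many embryos, so a level is an average over all their cells, and more cells of a type cannot be told apart from more RNA per cell. Poly(A) RNA was sequenced and CPM are shares. The amount of an mRNA per embryo and the length of its poly(A) tail were not measured.

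The egg is loaded by the mother with mRNA, and transcription from the embryo's own genome starts only after the first nuclear divisions. During the maternal-to-zygotic transition (MZT), a large part of the maternal mRNA is degraded, first by maternal factors such as the RNA-binding protein Smaug and later by zygotic ones such as microRNAs. Late in embryogenesis, muscle, nervous system, gut and fat body differentiate and the cuticle is laid down. *Drosophila* embryos are known to switch on the genes of glycolysis together in mid-embryogenesis, under the nuclear receptor ERR.

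The ratio that chose the genes ran from 73.2 for *Akr1B* (FBgn0086254, 3L from 11620535 to 11624381 in BDGP6), an aldo-keto reductase gene, down to 10.3, with a median of 16.8. The median of all candidates was 0.860, and 20.4% of them reached a ratio of 2. The other genes among the highest 10 were *Gapdh2* (66.9), *Tpi* (66.6), *QC* (65.3), *CG9265* (62.9), *Tsp74F* (56.5), *CG6770* (52.0), *dl* (42.9), *Got2* (42.3) and *M7BP* (41.2). *Gapdh2* and *Tpi* encode glycolytic enzymes, *QC* a glutaminyl cyclase, *Tsp74F* a tetraspanin, *dl* the NF-kappaB protein Dorsal, *Got2* the mitochondrial aspartate aminotransferase and *M7BP* a myosin-binding protein. The last 2 inside were *CG17698* (10.4) and *Lsd-2* (10.3), while *Gs1l* and *CG15771* (both 10.3) lay just outside. These levels are what the choice used, so they carry no test. For some genes the 20 h replicates differed widely. *QC* was at 31.7, 20.9, 149 and 135 CPM in 20 h replicates 1 to 4, and *CG9265* at 17.0, 8.03, 117 and 102. The ratios of these genes thus depend on replicates 3 and 4. Other genes were lower in those replicates, such as *qua* with 210, 197, 55.0 and 75.1 CPM. *Gapdh2* was at 610, 415, 741 and 653 CPM.

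Between 1 h and the low point, the summed level of the 150 genes went from 24177 to 981 CPM, the value at 8 h, and at 20 h it was 16048 CPM. As a share of its own 1 h level, the median gene stood at 31.7% at 2 h, 5.22% at 3 h, and 3.70% at 8 h, then 10.5% at 12 h, followed by 33.4% at 14 h and 54.1% at 16 h, before 42.5% at 18 h and 77.7% at 20 h. The median candidate stood at 96.3% at 2 h and between 54.7% and 76.8% from 3 h on. The lowest mean came at 8 h for 69 genes, at 3 h for 29, at 5 h for 26, at 4 h for 18, at 10 h for 7 and at 6 h for 1. It lay below 1 CPM for 30 genes. At 1 h, 102 genes were higher than at 20 h and 48 were not. A comparison of levels between genes needs exon length, and in CPM per kilobase of exon (RPKM) *CtsK1*, a cathepsin gene, was highest at 1 h with 965, followed by *CG6770* with 722 and *Gapdh2* with 587 RPKM. At 8 h these 3 genes were at 3.67, 8.16 and 5.92 RPKM. *CtsK1* was singled out after its values were seen.

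**Figure D1:**
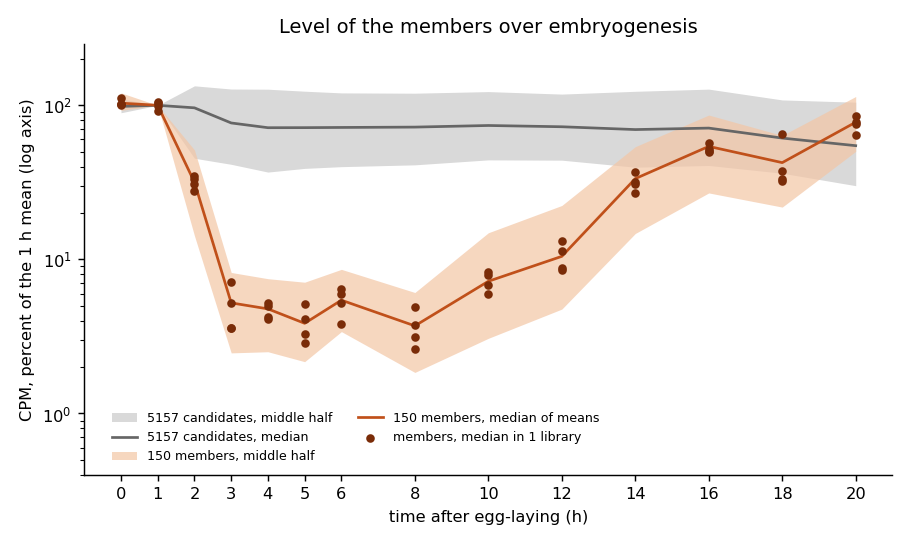
Level of the 150 genes at each of the 14 time points, as percent of each gene's 1 h mean on a log axis. The orange line is the median over the 150 genes, its band the interquartile range, each dot the median in 1 library, and the grey line and band are the same for all 5157 candidates. The orange line falls from 100% at 1 h to 3.70% at 8 h and is back at 77.7% at 20 h, while the grey line stays between 54.7% and 76.8% from 3 h on.

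Between 13422473 and 22536043 reads were assigned to genes in each sample, so that 3 counts correspond to 0.133 to 0.224 CPM, a limit that covers counting error only. Libraries of the same age differed in their share of late embryo RNA, which was followed with 21 markers of cuticle, muscle and neurons as the median percent of their 20 h level. The markers stood at 5.79% to 7.53% in 0 h replicates 1 to 3 and at 0.330% in 0 h replicate 4, at 0.793% to 1.78% at 1 h, and at 2.02% to 4.15% at 2 h. At 8 h they were at 1.57% and 1.66% in replicates 1 and 2, and at 0.119% and 0.389% in replicates 3 and 4. They rose to 19.3% to 39.9% at 16 h but were at 11.8%, 15.5% and 24.4% in 18 h replicates 1 to 3, against 51.6% in 18 h replicate 4. The first 3 of the 18 h libraries thus held fewer late transcripts than most 16 h libraries. Markers of follicle cells summed to 172 CPM in 10 h replicate 4 and 27.6 CPM in 20 h replicate 2, and to at most 7.17 CPM in any other library. The 17 follicle markers do not include any of the 150 genes, and their part in the results was not tested.

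The 1 h and 20 h levels that the choice used are set beside the markers as a description, with no test and with nothing read from them. At 1 h, the 150 genes stood at 19.4% (*ken*, a zinc-finger repressor gene) or more of their 20 h level. The median of the late markers was at most 1.78% of its 20 h level in any 1 h library. At 20 h, the 150 genes stood at 4.57% (*CtsK1*) or more of their 1 h level, and 6 of them were under 20%. The median of 8 maternal germline markers was 1.65% to 3.18% of the 1 h level in the 20 h libraries, but the markers differed. *osk* was at 1012 CPM at 1 h and 2.33 at 20 h, *bcd* at 195 and 5.58, *grk* at 20.1 and 11.2, and *gcl* at 353 and 171 CPM. At 8 h, the median of the 150 genes was 7.06%, 4.94%, 3.41% and 3.96% of the 20 h level in replicates 1 to 4, and the late markers were highest in replicates 1 and 2. The part of older embryos in these levels was not tested.

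**Figure D2:**
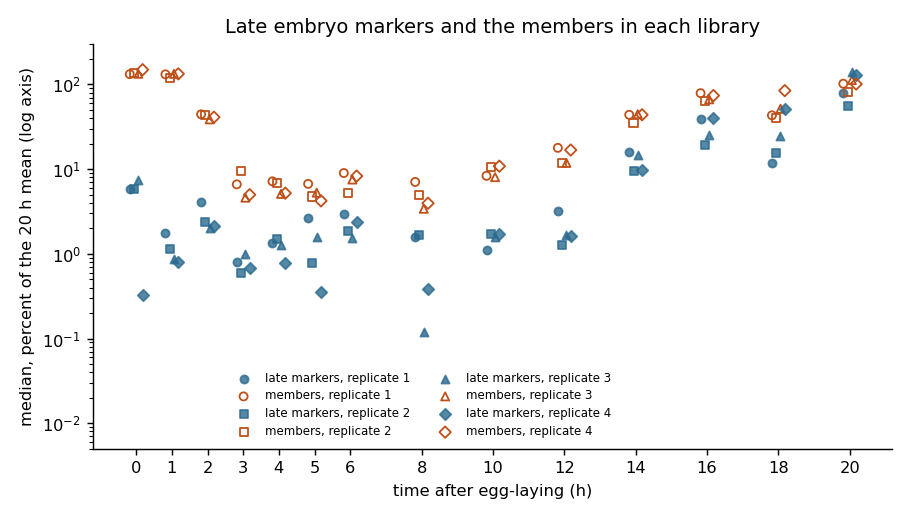
Median level of 21 late embryo markers (filled blue) and of the 150 genes (open orange) in each library, as percent of the 20 h mean on a log axis, with a symbol shape per replicate number. At 18 h, replicate 4 lies above the other replicates for the markers (51.6% against 11.8% to 24.4%) and for the 150 genes (84.4% against 40.6% to 51.6%).

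Clearance, here a fall in level, was followed from 0 to 2 h and from 2 to 12 h. The levels at these time points had no part in choosing the genes. They lie beside those that did, so more falls than over all genes are in part built into the choice. Changes were tested with edgeR's quasi-likelihood test over all 11065 genes with sufficient counts, and "changed", "rose" and "fell" below stand for an adjusted p under 0.05 with a log2 fold change of 1 or more in either direction. All 150 genes were among those tested. The log2 fold changes include a further scaling between libraries (TMM) that the printed CPM do not. A log2 fold change can therefore differ from the ratio of the CPM beside it. From 0 to 2 h, 85 of the 150 genes fell, where 13.5% of all genes tested did, and 2 rose, where 17.1% of all genes did. The median log2 fold change was -1.24 for the 150 genes and 0.33 for all genes. With 0 h replicate 4, which held the least late RNA, as the only 0 h sample, these medians were -1.16 and 1.09. The remaining level at 2 h varied widely between the genes. At 2 h, 16 genes were under 10% of their 1 h level, 95 between 10% and 50%, 30 between 50% and 100%, and 9 at or above it.

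The steepest falls from 0 to 2 h were those of *GstD1*, *Tpi* and *Got2*. *GstD1* (FBgn0001149, 3R from 12367817 to 12369268), a glutathione S-transferase that detoxifies insecticides, was at 798, 889.9, 758 and 944 CPM in the 4 replicates of 0 h and at 24.1, 20.4, 12.9 and 23.1 CPM at 2 h (log2 fold change -4.92, SE 0.25, adjusted p = 8.04e-22). *Tpi* (FBgn0086355, 3R from 30132981 to 30134599) went from 275, 257, 252 and 296 to 8.68, 6.55, 7.13 and 7.22 CPM (log2 fold change -4.72, SE 0.38, adjusted p = 7.69e-15). *Got2* (FBgn0001125, 2L from 1984512 to 1987758), which transfers amino groups between aspartate and glutamate in mitochondria, went from 290.3, 279.9, 273 and 305 to 12.2, 9.88, 9.51 and 11.6 CPM (log2 fold change -4.26, SE 0.31, adjusted p = 3.27e-16). In all 3 genes every 2 h replicate lay below every 0 h replicate, and their 1 h means of 423, 133 and 138 CPM lay in between.

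The 2 genes that rose before they fell were *CG1275* and *CG1927*. *CG1275* (FBgn0035321, 3L from 2252744 to 2257423) was at 72.6, 57.5, 79.2 and 56 CPM at 0 h and at 181, 165, 107 and 175 CPM at 2 h (log2 fold change 1.71, SE 0.30, adjusted p = 3.36e-06). By 12 h it had dropped to 6.02, 6.65, 4.71 and 5.14 CPM (log2 fold change -5.24, SE 0.36, adjusted p = 1.28e-17). *CG1927* was at 117, 112, 106 and 119 and then at 176, 170.3, 166 and 164 CPM (log2 fold change 1.04, SE 0.34, adjusted p = 0.00672), a call that did not hold with DESeq2, with its size factors, without the filter on low counts, with only the compared samples, without replicate 3 or with 0 h replicate 4 alone at 0 h. For both genes the replicates of 0 and 2 h did not overlap. The mean CPM of *CG1927* were 114 at 0 h and 169 at 2 h, a smaller step than its scaled log2 fold change, so its call depends on the scaling. *ftz-f1*, the nuclear receptor gene whose maternal product works with the pair-rule protein Ftz, was also high at 2 h, with 239, 226, 212 and 229 CPM after 177, 174, 193 and 157 at 0 h, but its rise did not pass (log2 fold change 0.84, SE 0.52, adjusted p = 0.179).

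From 2 to 12 h, 101 of the 150 genes fell (28.1% of all genes tested) and 10 rose (30.5% of all genes). The median log2 fold change was -1.85, and -0.09 for all genes. The 5 largest falls were those of *LpR1*, a receptor for the lipid carrier lipophorin, *Picot*, a phosphate cotransporter-like gene, *UK114*, *CG1275* and *AOX3*, an aldehyde oxidase. *LpR1* (FBgn0066101, 3R from 25741348 to 25763105) was at 65.4, 65.7, 37.5 and 64.6 CPM at 2 h and at 1.64, 1.41, 1.39 and 1.56 CPM at 12 h (log2 fold change -5.72, SE 0.53, adjusted p = 1.69e-13). The log2 fold changes of *Picot*, *UK114* and *AOX3* were -5.64, -5.62 and -5.22. At 2 h, *LpR1*, *Picot*, *UK114* and *AOX3* stood at 87.8%, 66.8%, 65.4% and 51.8% of their 1 h level in CPM.

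The 10 genes that rose from 2 to 12 h had been low by 2 h and were on the way back by 12 h. Among them were *CG17896*, *CG3902*, *Cht2*, *SREBP*, *Chchd2*, *FBgn0031464*, *Evi5*, *Snx1* and *wkd*. *CG17896* (FBgn0023537, X from 490787 to 493495) was at 104, 125, 104 and 122 CPM at 0 h, 7.84, 5.40, 4.17 and 6.01 CPM at 2 h and 71.2, 59.5, 68.6 and 62.8 CPM at 12 h (log2 fold change 3.05, SE 0.21, adjusted p = 7.90e-18 for 2 to 12 h). *SREBP* (FBgn0261283, 3L from 19793935 to 19798979), the transcription factor of lipid synthesis, was at 162, 131, 186 and 163, then 15.1, 11.1, 5.80 and 11.2, then 67.8, 44.6, 51.5 and 80.4 CPM (log2 fold change 2.06, SE 0.24, adjusted p = 2.19e-10). In both genes the 3 time points did not overlap. The log2 fold changes of *CG3902*, *Cht2*, a chitinase, and *Chchd2*, a mitochondrial protein gene, were 2.53, 2.36 and 1.81. *Snx1*, an endosomal sorting nexin, *Evi5*, *wkd* and *FBgn0031464* rose by 1.47 to 1.73.

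The return was followed over 12, 14, 16 and 18 h. These time points lie between the low levels and the 20 h level that the choice used. More rises than over all genes are thus in part built into the choice. From 12 to 14 h, 100 of the 150 genes rose (17.9% of all genes tested) and 0 fell (5.81% of all genes, 1 of the 150 at an unadjusted p under 0.05 and 0 by DESeq2). From 14 to 16 h, 21 rose (1.48% of all genes) and 0 fell (0.687% of all genes, 0 of the 150 at an unadjusted p under 0.05 and 0 by DESeq2). That count rests on few libraries, as it was 2 without replicate 1 (*Mgstl* and *PyK*) and 6 without replicate 3. From 16 to 18 h, 0 of the 150 rose (0.398% of all genes) and 0 fell (0.0% of all genes) in the edgeR fit and by DESeq2, with 1 up and 7 down at an unadjusted p under 0.05. Over the whole span from 12 to 18 h, 121 rose (23.4% of all genes) and 0 fell (7.02% of all genes, 0 of the 150 at an unadjusted p under 0.05 and 0 by DESeq2). The median log2 fold changes of the 150 genes were 1.46, 0.47, -0.13 and 1.78 in these 4 comparisons, and 0.08, -0.06, 0.02 and -0.01 for all genes.

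The last 2 counts rest on 18 h libraries that differed among themselves. In 18 h replicates 1, 2 and 3 the median gene stood at 32.1%, 33.3% and 37.6% of its 1 h level, and in replicate 4 at 64.8%. Of the 150 genes, 143 were higher in replicate 4 than in each of the others, and the mean of 130 was lower at 18 h than at 16 h. The late markers moved in the same way, and their part in the result was not tested. Without 18 h replicate 4, 96 of the 150 genes rose from 12 to 18 h, as 25 of the 121 lost their call. Over all genes, 2027 of 11226 tested rose in that fit. With replicate 4 as the only 18 h sample, the median log2 fold change was 2.32 for the 150 genes and -0.12 for all genes. For 31 of the 121 the fold change was over 1.5 times smaller without 18 h replicate 4. Without it, *Mgstl* and *Acox57D-d* fell from 16 to 18 h, with log2 fold changes of -1.36 and -1.05.

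**Figure D3:**
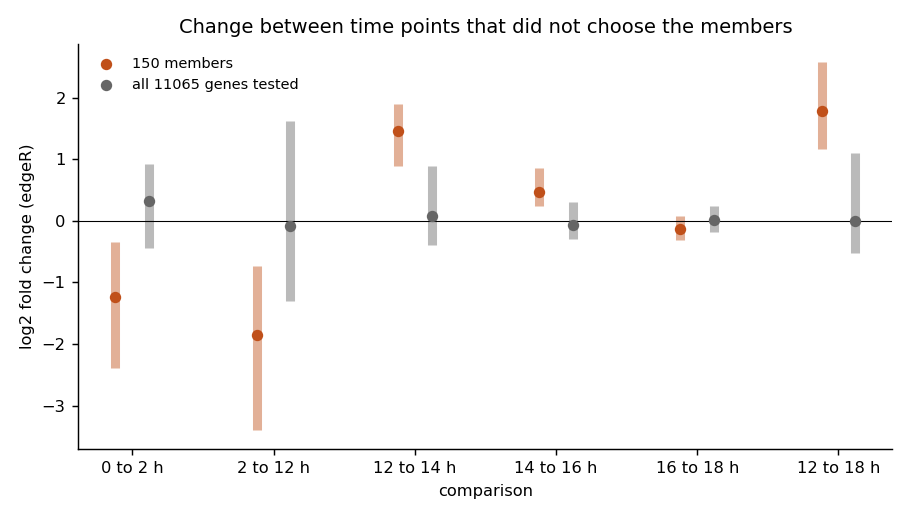
Log2 fold change in 6 comparisons between time points that were not used to choose the genes but lie beside or between those that were. Points are medians and bars interquartile ranges over the 150 genes (orange) and over all 11065 genes tested (grey), with the medians of the 150 at -1.24, -1.85, 1.46, 0.47, -0.13 and 1.78 from left to right.

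The largest rises from 12 to 18 h among genes with non-overlapping replicates were those of *CG10527*, *Tpi*, *Gapdh2*, *SLC5A11*, a sodium-coupled solute transporter, and *Akr1B*. *CG10527* (FBgn0034583, 2R from 21070368 to 21072789) was at 1.41, 0.512, 1.15 and 0.969 CPM at 12 h and 9.37, 15.6, 21.1 and 38.7 CPM at 18 h (log2 fold change 4.38, SE 0.44, adjusted p = 1.19e-10). *Akr1B* was at 11.9, 5.69, 6.15 and 6.48 CPM at 12 h, 57.4, 57.4, 46.3 and 82.3 CPM at 14 h, 140.4, 122, 123 and 146 CPM at 16 h and 53.4, 67.3, 93.1 and 217 CPM at 18 h (log2 fold change 3.82, SE 0.40, adjusted p = 3.15e-10 for 12 to 18 h). Without 18 h replicate 4 the log2 fold changes of *CG10527*, *Tpi*, *Gapdh2* and *Akr1B* were 3.74, 3.52, 3.14 and 3.06, and without replicate 1 those of *SLC5A11* and *Tpi* were 4.60 and 4.80. In the egg *Akr1B* had been at 559.9, 660.0, 533 and 647 CPM. *SLC5A11* rose by 3.89 (SE 0.47). The 12 h replicates of *Akr1B* all lay below its 14 h replicates, and its 18 h replicates spread over a wider range than those of any earlier time point from 12 h on.

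The low point came early for some genes and late for others. For 74 genes the lowest mean came at 3 to 6 h, and for 76 at 8 or 10 h, a division that rests on the levels used for the choice. The levels and calls of the early and late genes follow in part from this division. They are a description, and nothing is read from their contrast. Over all genes tested, 13.5% fell from 0 to 2 h, and 28.1% fell and 30.5% rose from 2 to 12 h. From 12 to 18 h, 23.4% of all genes rose. The early genes had a median of 21.9% of the 1 h level at 2 h and 25.7% of the 20 h level at 12 h, and the late genes 38.7% and 9.12%. Of the 74 early genes, 50 fell from 0 to 2 h, 29 fell and 10 rose from 2 to 12 h, and 47 rose from 12 to 18 h. Of the 76 late genes, 35 fell from 0 to 2 h, 72 fell from 2 to 12 h, and 74 rose from 12 to 18 h. The mean level first reached 50% of the 20 h level at 10 or 12 h for 11 genes, at 14 h for 51, at 16 h for 45, at 18 h for 1 and only at 20 h for 42. These classes rest on the 20 h mean, and the 20 h libraries differed, with late markers at 80.1%, 55.0%, 139% and 131% of their mean and the median of the 150 genes at 102%, 82.2%, 112% and 101% in replicates 1 to 4. The part of that difference was not tested. At 20 h, 28 genes were at their highest mean of all time points.

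Glycolysis, which breaks glucose down to pyruvate, was followed with a list drawn up after the 150 genes had been seen. Of its 12 enzymes, 7 were among the 150 genes (*Pfk*, *Tpi*, *Gapdh1*, *Gapdh2*, *Pglym78*, *Eno* and *PyK*), and 11 were candidates. Of the 12, 8 fell from 0 to 2 h, 8 fell and 2 rose from 2 to 12 h, 9 rose from 12 to 14 h, 5 from 14 to 16 h, and 11 from 12 to 18 h. Over the 12 genes the median change on the log2 scale was -2.08 from 2 to 12 h and 2.28 from 12 to 18 h, beside -0.09 and -0.01 over all genes, and for each list that follows the number of genes tested and the same pair of medians are given in parentheses. Among all candidates, 2.91% were in the group, and the candidates of each list are given beside its members. Over all genes tested, 13.5% (0 to 2 h), 28.1% (2 to 12 h) and 7.02% (12 to 18 h) fell. In these spans 17.1%, 30.5% and 23.4% rose. The other shares that rose were 17.9% (12 to 14 h) and 1.48% (14 to 16 h). The counts of this list and the later ones were not tested against these shares. Such counts pool genes of the 150, where a list holds any, with other genes. The changes of the 150 are in part built into the choice. The summed level of the 7 members was 4619 ± 365 CPM at 0 h (mean ± SD, n = 4), 3334 ± 378 at 1 h and then 794 ± 15.5 at 2 h, followed by 59.0 ± 16.2 at 8 h and 173 ± 44.8 at 12 h, before 1254 ± 169 at 16 h and then 1744 ± 320.1 at 20 h. In the 18 h replicates 1 to 4 the sum was 667, 751, 732 and 1393 CPM, and in those of 16 h 1398, 1315, 1294 and 1010.5 CPM. The sum was thus highest in the egg, and at 18 h replicate 4 stood apart from the others.

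*Pfk* (FBgn0003071, 2R from 10109740 to 10117457), the gene of phosphofructokinase at the committed step, was at 73.9, 72.1, 68.0 and 67.1 CPM at 2 h and 15.5, 8.83, 10.7 and 12.9 at 12 h, before 57.0, 40.2, 54.1 and 67.9 at 14 h and then 146, 118, 124 and 107 at 16 h. It fell from 2 to 12 h (log2 fold change -2.98, SE 0.25, adjusted p = 6.30e-15) and rose from 12 to 14 h (log2 fold change 2.14, SE 0.24, adjusted p = 3.60e-09). Its replicates did not overlap between any of these time points and the next, though those of 2 and 14 h did overlap. *Tpi*, the triose phosphate isomerase gene, was at 4.91, 1.41, 2.77 and 2.09 CPM at 12 h, 21.9, 24.0, 19.7 and 41.7 at 14 h and 87.4, 87.4, 92.5 and 56.9 at 16 h. It rose from 12 to 14 h (log2 fold change 3.21, SE 0.38, adjusted p = 1.02e-08) and again from 14 to 16 h (log2 fold change 1.44, SE 0.33, adjusted p = 0.00526). Only 16 h replicate 4 was far below the other 3 of its time point.

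*Gapdh2* (FBgn0001092, X from 15868145 to 15869661), glyceraldehyde-3-phosphate dehydrogenase, went from 1284, 1487, 1239.6 and 1507 CPM at 0 h to 68.6, 55.7, 47.0 and 57.5 at 2 h (log2 fold change -4.12, SE 0.37, adjusted p = 2.71e-13). It was at 20.5, 10.7, 12.4 and 12.1 CPM at 12 h, 94.0, 82.4, 86.0 and 140.2 at 14 h and 364, 294, 297 and 273 at 16 h, and rose in both steps (log2 fold change 2.80, SE 0.36, adjusted p = 5.22e-08 for 12 to 14 h, and log2 fold change 1.46, SE 0.34, adjusted p = 0.00518 for 14 to 16 h). Every replicate of 14 h lay above every replicate of 12 h and below every replicate of 16 h. Its near-identical copy *Gapdh1* had means of 403 CPM at 1 h, 11.8 at 12 h and 265 at 20 h. How reads common to both copies were divided was not tested, so the split between them is uncertain.

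Of the last enzymes of the pathway, *Pglym78* (phosphoglycerate mutase) had means of 228, 5.29 and 136 CPM at 1, 8 and 20 h, *Eno* (enolase) 1044, 23.5 and 319, and *PyK* (pyruvate kinase) 506, 9.23 and 112. All 3 rose from 12 to 18 h, with log2 fold changes of 2.51, 1.62 and 2.04 (1.43 for *PyK* without 18 h replicate 4). The 5 enzymes outside the group did not meet the rule. Over 1, 8 and 20 h, *Pgk*, *Ald1*, *Pgi* and *Hex-A* were also lowest at 8 h, with a shallower dip. *Pgk* was at 181, 31.0 and 195 CPM, *Ald1* at 313, 86.2 and 1154, *Pgi* at 106, 48.7 and 146, and *Hex-A*, the hexokinase gene, at 229, 28.6 and 101. *Hex-A* was also the enzyme that did not rise from 12 to 18 h (log2 fold change -0.04). The lactate dehydrogenase gene *Ldh* was low in the egg (3.97 CPM) and reached 281 CPM at 20 h.

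**Figure D4:**
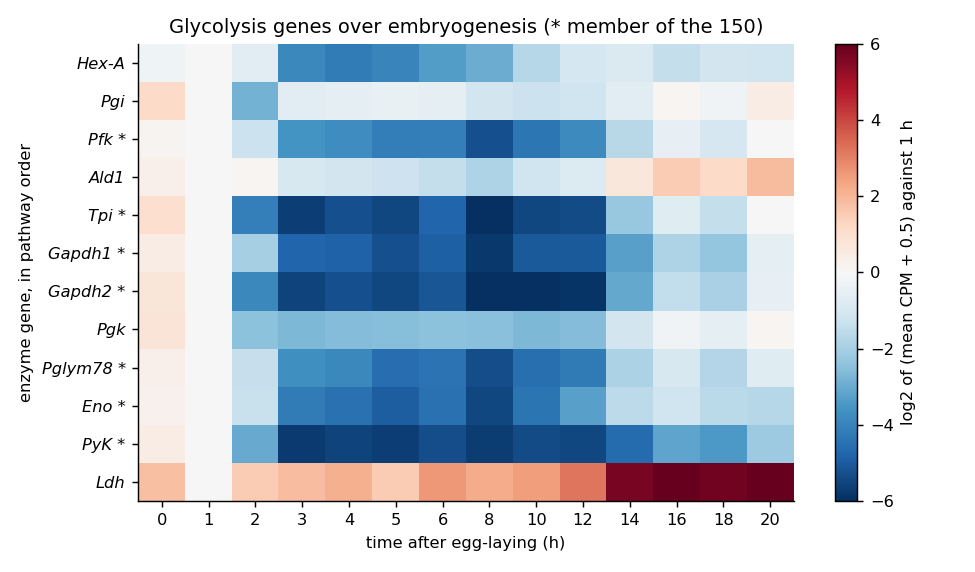
Mean level of 12 glycolysis genes at each time point as log2 of the ratio to 1 h, with 0.5 CPM added, from blue (lower) to red (higher), and an asterisk for the 7 enzymes among the 150 genes. The 7 marked rows are dark blue at 8 h and paler at 16 to 20 h, *PyK* least so, while *Pgi*, *Ald1* and *Pgk* change less and *Ldh* rises.

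Of 22 genes of the citric acid cycle, its anaplerotic enzymes and its shuttles, a list also drawn up with the 150 genes known, 8 were in the group, all 22 being candidates: *Idh*, *ScsbetaA*, *Mdh2*, *PCB*, *Men-b*, *Got1*, *Got2* and *aralar1*. Most listed enzymes of the cycle itself were outside the group, namely *kdn*, *mAcon1*, *Idh3a*, *Idh3b*, *Idh3g*, *Ogdh*, *Scsalpha1*, *ScsbetaG*, *SdhA*, *SdhB*, *SdhC* and *SdhD*. Of the 22, 7 fell and 2 rose from 0 to 2 h, 13 fell and 1 rose from 2 to 12 h, and 7 rose from 12 to 18 h (22 tested, medians -1.39 and 0.62 in the latter 2 spans). The summed level of the 8 genes was 1577 ± 134 CPM at 1 h and 57.0 ± 11.6 at 8 h, before 922 ± 120.3 at 16 h and then 1137 ± 136 at 20 h. *Idh* (FBgn0001248, 3L from 8356404 to 8360906), the NADP-dependent isocitrate dehydrogenase, was at 81.9, 85.2, 74.3 and 73.8 CPM at 2 h, 35.1, 18.5, 22.5 and 30.1 at 12 h and 126, 92.9, 135 and 194 at 14 h, and rose from 12 to 14 h (log2 fold change 2.30, SE 0.27, adjusted p = 7.99e-09). *Got2* was at 9.96, 4.22, 7.24 and 9.61 CPM at 12 h and 41.5, 40.0, 39.4 and 64.4 at 14 h (log2 fold change 2.53, SE 0.30, adjusted p = 1.02e-08). Both genes had 14 h replicates that were all above those of 12 h, with replicate 4 the highest.

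The malate-aspartate shuttle carries reducing power into mitochondria and was represented by both aminotransferases, by *Mdh2* and by the carrier *aralar1*. *Mdh2*, mitochondrial malate dehydrogenase, rose from 12 to 18 h by 2.44, and *Got1* by 1.73. *aralar1* had a log2 fold change of -0.02 in that span and means of 12.2, 12.0 and 40.0 CPM at 12, 18 and 20 h. Its 20 h replicates 1 to 4 were at 26.6, 13.8, 67.3 and 52.3 CPM. *ScsbetaA*, a subunit of succinyl-CoA ligase, was among the genes not yet lower at 2 h, with 291 CPM at 1 h, 323 at 2 h and 10.0 at 8 h. *PCB*, pyruvate carboxylase, rose by 1.78 from 12 to 18 h, while *Men-b*, a malic enzyme, was at 0.63 and did not pass. Of 84 genes of the mitochondrial respiratory chain, 60 were candidates and 0 were in the group, with 13 falling and 5 rising from 2 to 12 h and 1 rising from 12 to 18 h (66 tested, medians -0.57 and 0.52).

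Sugar storage was represented by 4 of 17 listed genes (9 candidates), *Glyp*, *AGBE*, *Treh* and *Pgm1*. *Glyp* (FBgn0004507, 2L from 2130813 to 2137296), glycogen phosphorylase, was at 323, 321, 279 and 301 CPM at 2 h, 46.7, 37.7, 40.5 and 32.9 at 12 h and 558, 455, 354 and 439 at 16 h. It fell from 2 to 12 h (log2 fold change -3.38, SE 0.39, adjusted p = 1.17e-10) and rose from 12 to 14 h (log2 fold change 2.24, SE 0.37, adjusted p = 5.85e-06). These replicates did not overlap between time points. *AGBE*, the glycogen branching enzyme, fell by 4.74 on the log2 scale and rose by 2.35 from 12 to 18 h, and *Treh*, trehalase, rose by 1.53. Of the 17 listed genes, 6 fell and 5 rose from 2 to 12 h, and 6 rose and 2 fell from 12 to 18 h (16 tested, medians -0.42 and 0.41). *Pgm1*, phosphoglucomutase, had log2 fold changes of -1.03 and 1.42 in these spans, and its fall did not pass with DESeq2 (-0.75).

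Of 20 genes of fatty acid oxidation and lipid stores, 18 were candidates and 4 were in the group, 13 fell and 4 rose from 2 to 12 h, and 6 rose from 12 to 18 h (20 tested, medians -1.58 and 0.69). *Mtpbeta*, a subunit of the mitochondrial trifunctional protein, had log2 fold changes of -3.01 and 1.89, and *Acox57D-d*, an acyl-CoA oxidase, -4.42 and 3.08 (2.24 without 18 h replicate 4). *yip2*, a thiolase, had -1.02 and 1.18, of which the fall did not pass with DESeq2 (-0.74) and the rise not without 18 h replicate 4 (0.69). *Lsd-2* (FBgn0030608, X from 15069127 to 15076220), the perilipin that coats lipid droplets, returned early and only in part. It was at 580.0, 626, 495 and 592 CPM at 2 h and 58.3, 54.6, 40.8 and 53.9 at 8 h, before 198, 159, 154 and 238 at 12 h and then 189, 146, 217 and 227 at 18 h. It fell from 2 to 12 h (log2 fold change -2.05, SE 0.20, adjusted p = 1.44e-12), and no change was found from 12 to 18 h (log2 fold change 0.06, SE 0.20, adjusted p = 0.806), where the replicates overlapped.

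Of 15 V-ATPase subunit genes, the proton pump of lysosomes and epithelia, 12 were candidates and 3 were in the group, *Vha100-2*, *Vha55* and *Vha68-2*. Their summed level was 1420.3 ± 74.7 CPM at 1 h and 94.1 ± 17.4 at 3 h, before 439.6 ± 42.1 at 12 h and then 1875 ± 472 at 20 h. *Vha68-2* (FBgn0263598, 2L from 12974322 to 12978607), the catalytic subunit, was at 156, 115, 125 and 162 CPM at 12 h and 308, 239.9, 309.9 and 383 at 14 h (log2 fold change 1.10, SE 0.21, adjusted p = 4.35e-05). Its replicates did not overlap between 12 and 14 h, and its rise from 12 to 18 h was 1.41, or 0.87 without 18 h replicate 4, when it did not pass. *Vha55* and *Vha100-2* had 0.81 and 0.77 in that span and did not reach the fold required. Of the 15 subunits, 3 fell and 2 rose from 2 to 12 h, and 2 rose from 12 to 18 h (15 tested, medians -0.63 and 0.59). *Mitf*, which activates lysosomal and V-ATPase genes, went from a mean of 248 CPM at 1 h to 4.72 at 8 h and rose by 2.43 from 12 to 18 h. Of 24 lysosomal genes, 13 were candidates and 0 were in the group (8 fell and 8 rose from 2 to 12 h, 3 fell and 6 rose from 12 to 18 h, 23 tested, medians -0.73 and 0.17). That list did not include the cathepsin gene *CtsK1*, which was in the group.

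Ion and water transport contributed *nrv1*, a beta subunit of the sodium pump, *Irk1*, an inward rectifier potassium channel, and *Prip*, an aquaporin, of 19 listed genes and 9 candidates (3 fell and 7 rose from 2 to 12 h, 3 fell and 7 rose from 12 to 18 h, 19 tested, medians 0.71 and 0.31). *Prip* and *Irk1* rose from 12 to 18 h by 1.16 and 1.17, values that were 0.75 and 0.94 without 18 h replicate 4 and then did not pass. *nrv1* had 0.83 and was back at 167 CPM by 12 h after 277 at 1 h and 21.0 at 4 h. *fray*, the kinase that regulates ion cotransporters, was at 275 CPM at 1 h, 5.84 at 5 h and 144 at 16 h. Its 20 h replicates 1 to 4 were at 145, 176, 45.3 and 55.0 CPM. *Calx*, the sodium-calcium exchanger, fell by 3.02 from 2 to 12 h on the log2 scale and rose by 2.06 from 12 to 18 h (1.18 without 18 h replicate 4 and 2.71 without replicate 1).

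The maternal dorsal-ventral pathway, in which the ligand Spätzle activates Toll and thereby Dorsal, contributed *dl* and *spz*, of 22 genes of the Toll and Imd pathways and 13 candidates (11 fell and 4 rose from 2 to 12 h, 6 rose from 12 to 18 h, 20 tested, medians -1.36 and 0.03). *dl* (FBgn0260632, 2L from 17436830 to 17450364) was at 124, 139, 141 and 142 CPM at 0 h and 18.6, 17.7, 13.0 and 19.0 at 2 h, before 8.18, 2.56, 4.10 and 5.29 at 12 h and then 73.6, 55.6, 54.9 and 65.5 at 16 h. It fell from 0 to 2 h (log2 fold change -2.52, SE 0.35, adjusted p = 2.16e-08) and rose from 12 to 14 h (log2 fold change 2.29, SE 0.36, adjusted p = 2.04e-06). Its levels at 0, 2, 12 and 16 h did not overlap with those of the neighbouring time point in this sequence. *spz* was at 53.2, 51.9, 32.1 and 48.8 CPM at 2 h, 7.43, 5.18, 5.31 and 5.81 at 12 h and 23.1, 13.9, 23.8 and 13.8 at 14 h (log2 fold change 1.60, SE 0.23, adjusted p = 3.91e-07). Its 14 h replicates were all above those of 12 h and all below those of 2 h.

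Of 21 nuclear receptor genes (10 candidates), *ftz-f1* and *Hnf4* were in the group (3 fell and 14 rose from 2 to 12 h, 3 fell and 4 rose from 12 to 18 h, 20 tested, medians 2.72 and -0.16). *ftz-f1* (FBgn0001078, 3L from 18750607 to 18801309), known also as a late competence factor in the ecdysone response, reached its highest late level at 20 h. It was at 16.2, 10.6, 13.3 and 7.30 CPM at 12 h and 34.4, 30.7, 29.0 and 51.0 at 16 h, before 19.7, 41.0, 55.6 and 183 at 18 h and then 444, 133, 784 and 773 at 20 h. From 12 to 18 h it rose (log2 fold change 2.63, SE 0.56, adjusted p = 9.16e-05), and its 18 h replicate 4 was far above the other 3. Without that library the log2 fold change was 1.52 and still passed. *Hnf4*, a regulator of fat catabolism, was at 11.3, 11.0, 8.81 and 11.4 CPM at 2 h, 30.5, 17.0, 19.1 and 34.2 at 12 h and 55.5, 36.2, 59.5 and 68.1 at 14 h (log2 fold change 1.06, SE 0.18, adjusted p = 7.94e-06). Its means at 14 and 20 h were 54.8 and 53.3 CPM. The rise from 12 to 18 h of 1.01 was 0.71 without 18 h replicate 4 and then did not pass.

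*foxo*, the transcription factor restrained by insulin signalling, was the only one of 18 listed genes of insulin and TOR signalling, 14 of them candidates, in the group (7 fell and 2 rose from 2 to 12 h, 1 rose from 12 to 18 h, 16 tested, medians -0.60 and -0.32). It was at 62.6, 62.4, 48.2 and 60.0 CPM at 2 h and 11.5, 8.64, 8.19 and 7.78 at 8 h, before 42.4, 24.6, 28.8 and 45.4 at 12 h and then 60.6, 47.6, 63.7 and 94.9 at 18 h. Its fall from 2 to 12 h (log2 fold change -1.16, SE 0.23, adjusted p = 1.16e-05) did not reach the fold required with DESeq2 (-0.88), and its change from 12 to 18 h was 0.91. The tetraspanins *Tsp42Ef*, *Tsp66E* and *Tsp74F* were 3 of 34 family members and 9 candidates (5 fell and 9 rose from 2 to 12 h, 20 rose from 12 to 18 h, 30 tested, medians 0.22 and 2.32). *Tsp74F* (FBgn0036769, 3L from 17891820 to 17895862) was at 60.1, 68.6, 64.5 and 76.2 CPM at 0 h and 3.72, 2.37, 1.57 and 2.16 at 12 h, before 7.10, 10.8, 11.6 and 26.6 at 18 h and then 58.0, 22.7, 234 and 246 at 20 h. It rose from 12 to 18 h (log2 fold change 2.51, SE 0.60, adjusted p = 4.01e-04), and its 20 h replicates 3 and 4 were far above replicates 1 and 2. Without 18 h replicate 4 the rise was 1.83 and still passed.

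Of the detoxification families, the glutathione S-transferases have 35 listed genes and 12 candidates, of which *GstD1* and *GstT3* were in the group (13 fell and 11 rose from 2 to 12 h, 1 fell and 16 rose from 12 to 18 h, 34 tested, medians -0.33 and 0.93). Of 35 UDP-glycosyltransferases, 4 were candidates and *Ugt302C1* was in the group (7 fell and 13 rose, then 1 fell and 20 rose, 29 tested, medians 0.74 and 1.64). *GstD1* stayed low at 10.7, 12.6, 10.0 and 10.8 CPM at 8 h, was at 41.8, 32.6, 30.9 and 39.9 CPM at 12 h and at 89.3, 99.4, 94.4 and 148 CPM at 18 h (log2 fold change 1.57, SE 0.22, adjusted p = 9.24e-08). *GstT3*, in contrast, was at 18.3 CPM at 1 h and 20.1 at 2 h, and fell by 4.33 from 2 to 12 h on the log2 scale. *Prx2*, a peroxiredoxin that removes hydrogen peroxide, went from a mean of 816 CPM at 1 h to 4.96 at 8 h and 68.6 at 20 h. *Aldh*, the aldehyde dehydrogenase, was at 118, 5.99 and 144 CPM, with 72.0, 25.1, 289 and 190 CPM in 20 h replicates 1 to 4. Of 86 cytochrome P450 genes, 5 were candidates and 0 were in the group (15 fell and 22 rose from 2 to 12 h, 4 fell and 35 rose from 12 to 18 h, 66 tested, medians 0.29 and 1.54).

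Signalling and cytoskeletal genes were also found among the 150. *CAH2*, a carbonic anhydrase, *CanB2*, the regulatory subunit of calcineurin, and *Irp-1B*, an iron regulatory protein, rose from 12 to 18 h by 3.51, 3.28 and 2.33 on the log2 scale. *Pka-R2*, the regulatory subunit of the cAMP-dependent kinase, and *dnc*, the cAMP phosphodiesterase known for its role in learning, rose by 2.15 and 1.52. The p38 kinase genes *p38a* and *p38b* of stress signalling were in the group, of which *p38a* rose (1.08) and *p38b* was at 0.15 and did not pass. The actin and microtubule regulators *qua* (a villin-like protein), *Vinc* (vinculin) and *stai* (stathmin) rose by 2.32, 1.04 and 2.13. *ken* rose by 2.84 and *Snoo*, of the Ski family of Smad corepressors, by 1.95. *Pvf1*, a PDGF- and VEGF-related ligand, and *Pkc98E*, a protein kinase C, did not pass, with 0.17 and 0.78. Without 18 h replicate 4, *dnc*, *p38a* and *Vinc* had 0.83, 0.76 and 0.64 and did not pass, while *CAH2*, *Irp-1B*, *Pka-R2* and *ken* had 2.78, 1.58, 1.55 and 1.99 and did.

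*tapas*, a Tudor domain gene that acts with piRNA factors in the germline, came back to 174 CPM at 16 h after 164 at 1 h and 4.87 at 5 h, and rose by 2.29 from 12 to 18 h on the log2 scale. At 20 h it was at 175, 176, 48.3 and 48.0 CPM in replicates 1 to 4. The proline pathway genes *P5cr* and *P5CDh1* rose by 3.14 and 1.69, *Sply*, sphingosine-1-phosphate lyase, by 1.72, *Jheh2*, a juvenile hormone epoxide hydrolase, by 1.50, and *cu*, the fly gene related to the deadenylase Nocturnin, by 1.24 (0.90, not passing, without 18 h replicate 4). Of 3 further lists, 4 clock genes, 3 serpins and 17 autophagy genes were candidates, and 0 were in the group. Of 10 clock genes, 2 fell and 5 rose from 2 to 12 h and 4 rose from 12 to 18 h (9 tested, medians 1.16 and 0.77), and of 27 serpins 3 fell and 9 rose and then 10 rose (20 tested, medians 0.84 and 1.35). Of 20 autophagy genes, 7 fell and 2 rose from 2 to 12 h (19 tested, medians -0.92 and -0.24).

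**Figure D5:**
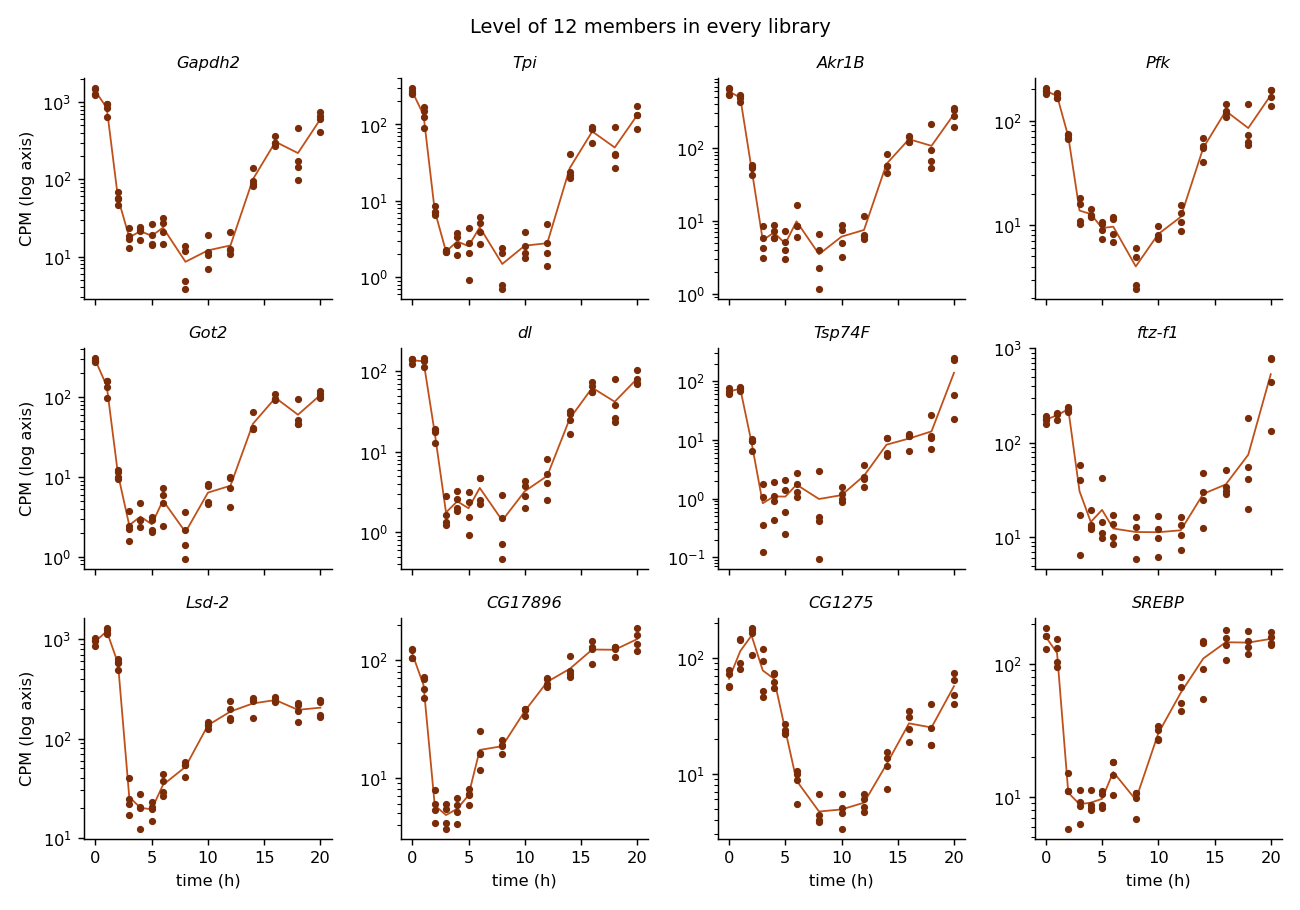
Level in CPM, on a log axis, of 12 of the 150 genes in every library over the 14 time points, with 1 dot per replicate and the line through the means of 4 replicates. *Gapdh2*, *Tpi*, *Akr1B*, *Pfk*, *Got2* and *dl* share a low point at 8 h and a high 18 h replicate 4, *ftz-f1* and *Tsp74F* rise mainly at 20 h, and *CG17896* and *SREBP* are low by 2 h and back by 12 h.

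Features that the choice did not use were compared without a test. Of the 150 genes, 147 were found in the Ensembl 115 annotation and have a symbol, and FBgn0033075, FBgn0030758 and FBgn0031464 were not. All 147 are protein-coding, as are 99.9% of the 5025 annotated candidates. At least 2 annotated transcription start sites were found for 82 of the 147 genes (55.8%) and for 37.6% of the candidates. Exon length was alike, with medians of 2342 and 2365 bases. The chromosome arms held 15.6% (2L), 21.1% (2R), 21.1% (3L) and 21.8% (3R) of the genes and the X chromosome 19.7%, against 17.5%, 19.8%, 19.7%, 24.4% and 17.4% of the candidates. Promoter and 3′ sequences were not analysed here, and which transcript isoforms made up the maternal and the late mRNA was not measured in counts per gene.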

How the data were processed

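Poly(A) RNA of whole embryos was sequenced in 56 libraries prepared with a stranded kit. The deposited values are whole-number read counts per gene, which the authors obtained by mapping with STAR to BDGP6 with the Ensembl 79 annotation, allowing 2 mismatches and at most 10 loci, keeping the primary alignment and counting with htseq-count in union mode. The submitters' processing notes list STAR 2.4.0h, SAMtools 1.2, HTSeq 0.6.1p1 and bcl2fastq 1.8.4. Reads on more than 1 gene (1.35% to 1.87% of reads counted on genes and in these classes) or on none (0.436% to 1.95%) stayed out of library sizes. Every per-sample column was mapped to its sample by the labels.

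CPM values were computed in Python 3.11.15 (pandas 2.3.3, numpy 2.4.6, matplotlib 3.10.9). Counts were tested in R 4.3.3 with edgeR 4.0.16 (filterByExpr, TMM scaling, quasi-likelihood test, 1 fit over the 14 time points) and Benjamini-Hochberg adjustment over all genes tested in each of 6 comparisons, and with DESeq2 1.42.0 as an alternative. The spread between replicates was estimated over all 56 libraries together, so a test does not measure the spread at the compared time points alone. The rule for the genes used 1, 3, 4, 5, 6, 8, 10 and 20 h, so comparisons were made among the other time points only. On simulated data with 200 of 10991 genes changed 4-fold from 12 to 18 h, edgeR found 179 of them (89.5%) with 3 other calls, and DESeq2 found 175 (87.5%) with 2 others. In that simulation every gene had the same spread, and as many genes went up as down. All other genes had equal means at 12 and 18 h. The real 18 h libraries differed among themselves, so these rates do not carry over to the calls reported here.

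The genes and the lists were chosen with earlier results of these data known, and the lists of glycolysis and of the citric acid cycle were drawn up after the 150 genes had been seen. Genes were named by these rules: the 10 with the largest ratio, the 2 on either side of the limit, the largest changes among called genes whose replicates did not overlap and whose mean reached 100 counts (up to 5 each way for 2 to 12 h and 12 to 18 h, up to 3 for 0 to 2 h), up to 5 of each list, and up to 30 with an established role. Beyond these, the rises from 2 to 12 h outside the largest 5 and the genes behind small counts were named after their values were seen. Values of 1 of the 150 genes are not reported here. Symbols, coordinates and exon lengths were taken from the Ensembl 115 annotation of BDGP6, which matched 17252 of 17558 gene IDs. Promoter and 3′ motifs were planned and not run, as sequences were not used here. The alternatives were DESeq2 as the test, TMM replaced by the DESeq2 size factors, omission of the low-count filter, a fit to the compared samples alone, the replicate number as a block, each replicate left out, 0 h replicate 4 alone, other settings of the rule, and, chosen after seeing the data, fits without or with only 18 h replicate 4.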

Additional observations from a re-analysis of the deposited data

Results flagged for a closer look

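Libraries were looked at within each time point for 128 sets of 4 values, and in 14 the gap of 1 library to its nearest neighbour as a share of the whole range was above Dixon's critical value, which chance gives in about 1 of 20. For *Got2* this was replicate 4 at 14 h (64.4 CPM against 39.4 to 41.5, share 0.9155) and at 18 h (95.3 against 46.3 to 52.3, share 0.8772). The median of the 150 genes at 18 h stood at 64.8% of its 1 h level in replicate 4 and at 32.1% to 37.6% in the others (0.8334). At 12 h, replicate 1 was high for *Gapdh2* (20.5 against 10.7 to 12.4 CPM, 0.8343) and for *Akr1B* (11.9 against 5.69 to 6.48 CPM, 0.8728). *Lsd-2* was low in 14 h replicate 2 (162 against 240.0 to 256 CPM, 0.8325). At 16 h, *Tpi* was low in replicate 4 (56.9 against 87.4 to 92.5 CPM, 0.8561) and *Tsp74F* in replicate 2 (6.56 against 11.6 to 12.5 CPM, 0.8591).

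Among the markers, the follicle cell genes summed to 3.53 CPM in 0 h replicate 2 (0.0557 to 0.455 in the others, 0.8851), 172 CPM in 10 h replicate 4 (2.77 to 6.17, 0.9799) and 27.6 CPM in 20 h replicate 2 (at most 5.45, 0.8827). The late markers were at 4.15% of their 20 h level in 2 h replicate 1 and at 2.02% to 2.38% in the others (0.8306). The maternal germline markers were at 1.60% of their 1 h level in 6 h replicate 1 (2.25% to 2.36% in the others, 0.8578) and at 1.65% in 20 h replicate 1 (2.92% to 3.18%, 0.8304). None of these markers is among the 150 genes.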

How the results depend on the processing

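Of 125 repeats, 115 kept the reported result. For counts of changed genes among the 150 this meant staying within 1.5 times the reported value, and a 0 that stayed 0 was included. Repeats of the rule for the genes were also among the 125 and were judged by how many of the 150 genes they kept. The exceptions were the rises from 0 to 2 h, 2 as reported and 1 (*CG1275*) with DESeq2, its size factors, no filter, only the samples compared or 0 h replicate 4 alone, the rises from 14 to 16 h, 21 as reported and 2 to 22 with 1 replicate number left out, and the falls from 16 to 18 h, 0 as reported and 2 without replicate 4 (*Mgstl* and *GstT3*) or without 18 h replicate 4 (*Mgstl* and *Acox57D-d*). With 1 replicate number left out, the rises from 0 to 2 h were 1 to 2 and the falls from 16 to 18 h 0 to 2. Of 960 repeats for the named genes, 921 kept the call, 39 lost it and 0 changed sign. Where 1 library stood alone for its time point, it was assumed to vary like the other groups.

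Over all genes tested, DESeq2 size factors moved the median log2 fold change from 2 to 12 h from -0.09 to 0.19 and that of the 150 genes from -1.85 to -1.56. The rises among calls from 14 to 16 h were 68.3% (164 up, 76 down) and 81.9% with these size factors (203 up, 45 down). From 0 to 2 h, the 1891 rises over all genes were 362 with only the samples compared, 1072 with no filter and 4336 with 0 h replicate 4 alone. The 164 rises from 14 to 16 h were 318 with DESeq2, 540 with only the samples compared, 7 without replicate 1 and 14 without replicate 3, and the 44 from 16 to 18 h were 73, 1, 0 without replicate 1, 2 or 3, and 157 without 18 h replicate 4. The 777 falls from 12 to 18 h were 1906 with 18 h replicate 4 alone. Under other settings of the rule, 139 to 145 of the 150 genes remained.

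With the replicate number as a block, the counts among the 150 genes were 2 up and 85 down, 10 up and 103 down, 100 up, 22 up, 0 and 121 up in the 6 comparisons. Libraries that share a number did not deviate together (mean correlation 0.00542, from -0.550 to 0.465, against -0.00175 for other pairs), so the numbers do not pair the samples.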
